A study of Homo sapiens with 26 samples.

Results

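Solute carriers are membrane proteins that move sugars, amino acids, ions, metals, vitamins and metabolites across membranes, and their genes carry symbols that begin with SLC. The mRNAs described here are those of protein-coding SLC genes chosen by their measured values: a log2 expression level above 0 in at least 3 of 26 libraries. The rule gave 251 members of 25745 genes in the matrix, namely 43 of the 46 SLC25 genes and 208 of the 268 other SLC genes listed there, and 63 listed SLC genes did not pass.

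Most SLC25 proteins are carriers of the mitochondrial inner membrane, which exchange ADP, ATP, phosphate and metabolites between the matrix and the cytosol. These inner membrane carriers are made on cytosolic ribosomes and imported through the mitochondrial translocases. Most other solute carriers are inserted into the endoplasmic reticulum as they are made and travel from there to the plasma membrane, the Golgi apparatus, lysosomes or other membranes.

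The libraries come from APEX-seq, in which the peroxidase APEX2 tags nearby RNA with biotin when given biotin-phenol and hydrogen peroxide, and streptavidin beads capture the tagged RNA. The cells are HEK293T, an established human line of embryonic kidney origin with the SV40 large T antigen, stably expressing APEX2 fused to Lyn11, Lck, CD28 or PDGFR. The study's design places Lyn11 and Lck inside the plasma membrane and CD28 and PDGFR outside it. Lyn11 had 4 labeled and 4 unlabeled control libraries, and Lck, CD28 and PDGFR had 3 labeled and 3 control libraries each. The labels give the same treatment for all 8 groups: biotin-phenol for 30 min, then 1 mM hydrogen peroxide for 1 min. Which step the controls lacked, the promoter driving each fusion and whether each line is 1 clone are not given in the sources used here. The design calls the replicates biological without saying how they were separated, so the p-values measure the spread between these libraries.

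The unit is log2 FPKM, in which reads are divided by exon length and by library size, so levels of different genes are compared per length. Recovered depth was 19.9 to 35.5 M reads in the 14 inside libraries and 11.6 to 16.6 M reads in the 12 outside libraries, so the side of the membrane and the depth cannot be told apart. The second CD28 labeled library and the second PDGFR control library stood apart from the others of their groups, and results that rest on them are given with and without them. All 8 of the embryonic kidney line markers analysed passed the same filter, with a summed level of 94.6 to 155 FPKM in labeled and 86.0 to 164 FPKM in control libraries. Of the 2 blood markers analysed, 1 passed, and together they summed to 1.98 to 4.64 FPKM in labeled and 2.54 to 5.94 FPKM in control libraries. COL1A1 alone of the 4 fibroblast markers analysed passed, with sums of 5.11 to 10.7 FPKM in labeled and 5.66 to 9.94 FPKM in control libraries. CDH1 alone of the 2 epithelial carcinoma markers passed, with sums of 0.698 to 2.14 FPKM in labeled and 0.508 to 2.43 FPKM in control libraries. Of 2 differentiated kidney tubule markers, themselves SLC genes, SLC5A2 passed and SLC12A3 did not. Those tubule markers summed to 0.116 to 2.0 FPKM in labeled and 0.182 to 0.757 FPKM in control libraries. In these bulk samples, fewer cells with an mRNA and less of it per cell cannot be told apart.

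Of the 251 members, 195 were above 0 in all 26 libraries, 37 of them SLC25 genes and 158 other SLC genes. SLC35D3, SLC35F3 and SLC35G5 stood just inside the rule with 3 libraries above 0, and SLC35D2, SLC6A12 and SLC6A4 just outside it with 2. A set of 7 members reached 3 libraries above 0 through labeled libraries alone (SLC25A18, SLC6A13, SLC38A8, SLC3A1, SLC4A5, SLC5A2 and SLC35G5), and such genes had to differ between the groups. No member passed through control libraries alone. A further 5 members carry the symbol without being carriers: the scaffold proteins SLC9A3R1 and SLC9A3R2, and SLC4A1AP, SLC7A6OS and SLC2A4RG, which are named after a carrier gene. An annotated gene on the opposite strand overlapped 141 members, and the strandedness of the libraries is not given in the sources used here, so reads of such pairs cannot be told apart.

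SLC25 mRNAs were the more abundant of the SLC sets per length. The median member level over the 26 libraries was 2.87 log2 FPKM for SLC25 genes and 2.37 log2 FPKM for other SLC genes, against 2.80 log2 FPKM for the 12937 protein-coding genes tested. The SLC25 median lay above the median of the other SLC genes in all 26 libraries, by 0.293 to 1.05 log2 units. Library medians of SLC25 ran from 2.61 to 3.25 log2 FPKM and those of the other SLC genes from 2.07 to 2.60 log2 FPKM.

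The order held in labeled and control libraries of each construct. In Lyn11 cells the SLC25 library medians averaged 3.03 ± 0.15 log2 FPKM in labeled and 3.02 ± 0.11 in control libraries (SD, n = 4 each). In Lck cells they averaged 2.70 ± 0.10 in labeled and 2.75 ± 0.02 in control libraries (SD, n = 3 each). In CD28 cells they averaged 3.04 ± 0.12 in labeled and 2.89 ± 0.09 in control libraries, and in PDGFR cells 2.87 ± 0.05 in labeled and 2.91 ± 0.08 in control libraries (SD, n = 3 each). The other SLC genes averaged 2.39 ± 0.12 in Lyn11 labeled and 2.39 ± 0.14 in Lyn11 control libraries, and 2.32 ± 0.05 in Lck labeled and 2.28 ± 0.04 in Lck control libraries. Their means were 2.21 ± 0.15 in CD28 labeled and 2.31 ± 0.13 in CD28 control libraries, and 2.41 ± 0.03 in PDGFR labeled and 2.49 ± 0.13 in PDGFR control libraries. In each construct the labeled and control medians of either set were close to each other.

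**Figure D1:**
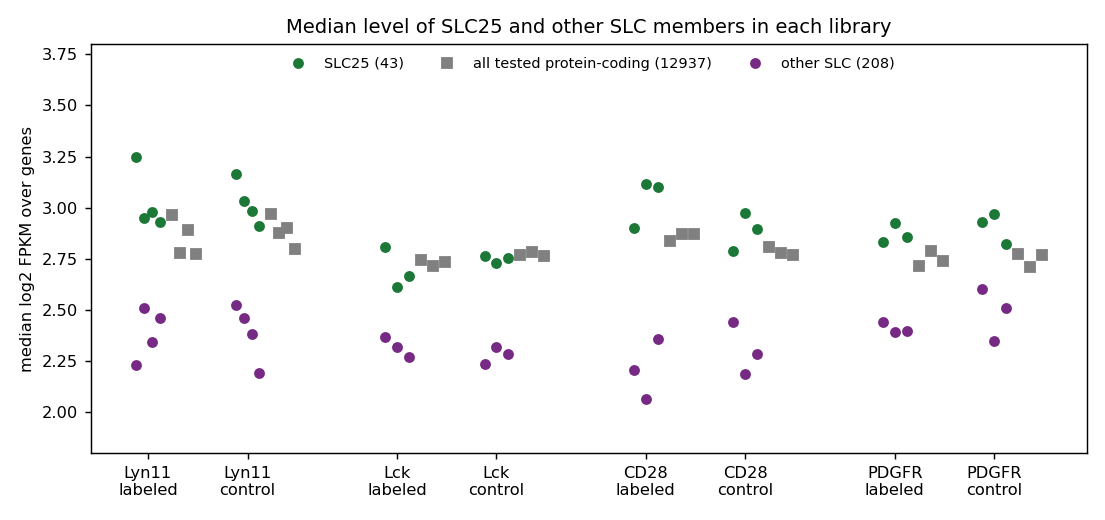
Median log2 FPKM in each of the 26 libraries over the 43 SLC25 members (green circles), the 208 other SLC members (purple circles) and the 12937 protein-coding genes tested (grey squares), with labeled left of control for each construct. The green points run from 2.61 to 3.25 and lie above the purple points, which run from 2.07 to 2.60, in every library.

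The most abundant SLC25 members, taken by mean level alone, were SLC25A5, SLC25A1, SLC25A39, SLC25A3 and SLC25A11. SLC25A5, an ADP/ATP carrier, had a lowest, median and highest level of 7.96, 8.61 and 8.86 log2 FPKM in the 13 labeled libraries and 7.63, 8.33 and 8.95 log2 FPKM in the 13 control libraries. SLC25A1, the citrate carrier, had 5.42, 6.25 and 6.74 log2 FPKM in labeled and 5.53, 6.19 and 6.72 log2 FPKM in control libraries. SLC25A39, which carries glutathione, had 5.10, 5.85 and 6.06 log2 FPKM in labeled and 5.19, 5.76 and 6.62 log2 FPKM in control libraries. The labeled and control ranges of each of these carriers overlap. SLC25A3, the phosphate carrier, had 4.93, 5.48 and 5.78 log2 FPKM in labeled and 4.65, 5.36 and 5.76 log2 FPKM in control libraries. SLC25A11, the oxoglutarate carrier, had 4.54, 5.28 and 5.64 log2 FPKM in labeled and 4.72, 5.06 and 6.01 log2 FPKM in control libraries. SLC25A5 lay above the others in every library, while the ranges of SLC25A3, SLC25A39 and SLC25A11 overlap.

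Among the other SLC genes the most abundant were amino acid and lactate transporters of growing cells. SLC7A5, the light chain of the leucine transporter LAT1, had a lowest, median and highest level of 6.41, 6.96 and 7.47 log2 FPKM in labeled and 6.25, 6.85 and 7.34 log2 FPKM in control libraries. SLC1A5, a glutamine transporter, had 6.45, 6.97 and 7.67 log2 FPKM in labeled and 6.24, 6.67 and 7.22 log2 FPKM in control libraries. SLC16A1, the lactate and pyruvate transporter MCT1, had 6.01, 6.41 and 7.03 log2 FPKM in labeled and 5.91, 6.29 and 6.54 log2 FPKM in control libraries. SLC3A2, the heavy chain that pairs with SLC7A5, averaged 5.98 log2 FPKM over all 26 libraries, and SLC7A1, a cationic amino acid transporter, 5.88 log2 FPKM. The ranges of SLC7A5, SLC1A5 and SLC16A1 overlap one another. By substrate, median member levels were 3.03 log2 FPKM for 24 zinc and other metal transporters, 2.95 for 25 amino acid transporters, 2.85 for 27 SLC35 nucleotide sugar and related transporters and 1.51 for 19 transporters of organic ions and bile acids. The metal and amino acid medians lie above the SLC25 median of 2.87 log2 FPKM, and those of the SLC35 and organic ion groups lie below it.

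Few SLC mRNAs differed between labeled and control libraries. Those that did were mostly scarce, a split by level that was not compared with that of all genes. In Lyn11 cells 3 of 251 members were higher and 0 lower, beside 0.579% of the 22284 genes tested called in either direction, 0.53% higher and 0.0494% lower (limma, Benjamini-Hochberg adjusted p under 0.05 over all genes tested). In Lck cells 5 were higher and 0 lower, beside 0.794% of all genes, 0.758% higher and 0.0359% lower. In PDGFR cells 5 were higher and 0 lower, beside 2.13% of all genes, 1.37% higher and 0.758% lower. In CD28 cells limma called 0 members, beside 0.476% of all genes. There 21 members had an unadjusted p under 0.05, and limma voom on the recovered reads also called 0. The members' shares were 1.20% in Lyn11, 1.99% in Lck, 0% in CD28 and 1.99% in PDGFR cells, small counts against the backgrounds given. Of the members called, 1 in Lyn11, 2 in Lck and 1 in PDGFR cells had passed the detection rule through labeled libraries alone. Such members had to differ, so these shares are in part set by the rule.

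These counts are small and rest in part on single libraries. The Lyn11 count was 5 without the first Lyn11 control library and 5 without the second PDGFR control library. The Lck count was 3 without the second or the third Lyn11 labeled library, the third Lck labeled library or the second Lck control library. It was 2 without the first or the second Lck labeled library or the first or the third Lck control library. The CD28 count was 1 without the first CD28 labeled library. The PDGFR count was 3 without the second or the third Lyn11 control library, any 1 Lck labeled library, the first or the third Lck control library or the first or the second PDGFR labeled library, and 2 without the second PDGFR control library.

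On the average of the 4 labeled minus control differences, 12 members were higher and 1 lower. The 13 called members are 5.18% of 251, beside 7.37% of all genes tested, 4.29% higher and 3.08% lower, and 5.12% of the protein-coding genes tested, a share near the background. Among SLC25 genes, SLC25A18 was called higher and SLC25A2 fell, and the other 41 did not pass the test. Among other SLC genes, 11 of 208 rose and 0 fell. Of the 192 members with a mean level of at least 1 log2 FPKM, SLC10A1 and SLC24A1 rose, and of the 59 below that level 10 rose and 1 fell. The share of all genes called at either level was not computed, so this split is not read as a trait of SLC genes. With the stricter filter, above 0 in at least 13 libraries, limma called 1184 of 19739 genes on the average, against 1642 of 22284 here. Of the 12 higher members, 6 had passed the detection rule through labeled libraries alone. The SLC25 count was 1 without any 1 of 18 libraries, and it kept its value of 2 or reached 3 only without the first or the third Lyn11 labeled, the first or the fourth Lyn11 control, the first Lck control, the third CD28 labeled, the second PDGFR labeled or the first PDGFR control library.

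**Figure D2:**
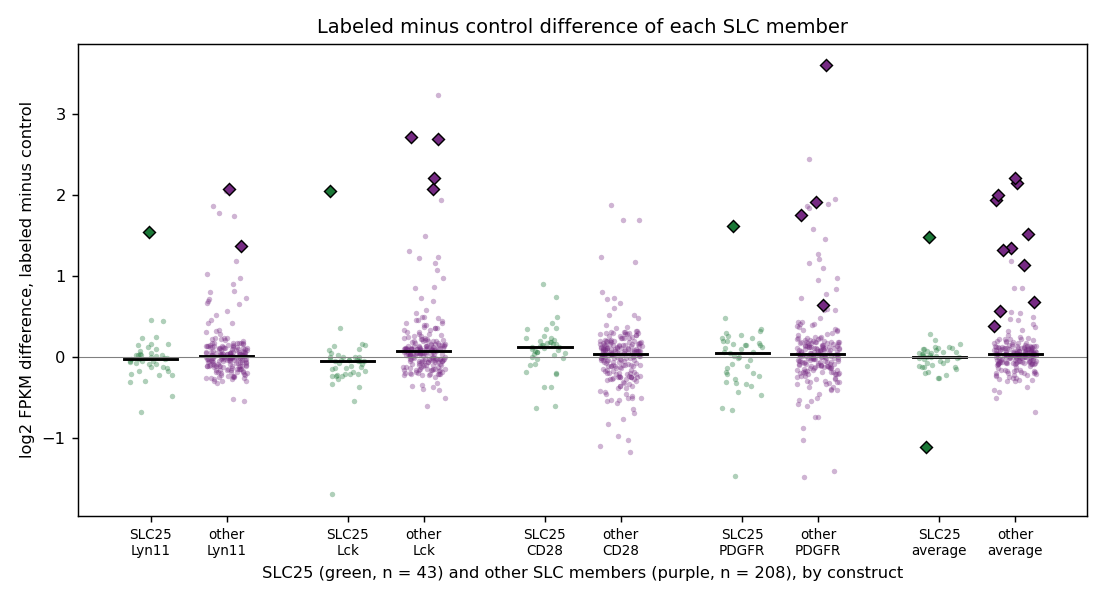
Labeled minus control difference in log2 FPKM of each SLC25 member (green, n = 43) and each other SLC member (purple, n = 208) in the 4 constructs and on their average. Black-edged diamonds are members with a limma adjusted p under 0.05 over all genes tested, and horizontal bars are set medians, which lie between -0.05 and 0.12 for SLC25 and between 0.01 and 0.08 for other SLC genes.

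As sets, SLC25 and other SLC genes had medians near 0 in every construct. The median log2 difference in Lyn11 cells was -0.01 for SLC25 and 0.01 for other SLC genes, beside -0.03 for all genes tested. In Lck cells it was -0.05 for SLC25 and 0.08 for other SLC genes, beside -0.04 for all genes. In CD28 cells it was 0.12 for SLC25 and 0.04 for other SLC genes, beside 0.03 for all genes and 0.11 for protein-coding genes. In PDGFR cells it was 0.06 for SLC25 and 0.04 for other SLC genes, beside 0.02 for all genes. The 2 SLC medians differed by -0.03 in Lyn11, -0.13 in Lck, 0.08 in CD28 and 0.02 in PDGFR cells. Between replicate libraries the gap of the set medians had an SD of 0.192 in Lyn11, 0.0683 in Lck, 0.207 in CD28 and 0.132 in PDGFR cells. That SD is of the gap within a library, another quantity than the differences above, so it does not measure their spread. The mean library gap was 0.64 in labeled and 0.63 in control libraries of Lyn11, and 0.38 and 0.47 in those of Lck. It was 0.83 and 0.58 in CD28 and 0.46 and 0.42 in PDGFR cells, labeled before control. In Lck cells the median difference of protein-coding genes was -0.05. On the average of the 4 constructs the medians were 0.01 for SLC25 and 0.04 for other SLC genes.

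SLC10A1, the sodium and bile acid cotransporter NTCP of hepatocytes, was higher in labeled libraries of every construct, a difference that missed the threshold in CD28 cells. Its gene lies on the minus strand of chr14:69775417-69797289 (hg38). In Lyn11 cells it stood at 2.01, 2.15, 2.12 and 1.83 log2 FPKM in labeled libraries and at 0.54, 0.66, 0.71 and 0.75 log2 FPKM in controls (difference 1.37 ± 0.18 SE, limma adjusted p = 0.000315). In Lck cells it stood at 2.79, 2.76 and 2.91 log2 FPKM in labeled libraries and at 0.69, 0.87 and 0.66 log2 FPKM in controls (difference 2.08 ± 0.21 SE, limma adjusted p = 1.32e-05). The highest of these values was in a Lck labeled library. In CD28 cells the levels were 2.36, 2.12 and 2.08 log2 FPKM in labeled libraries and 1.73, 0.87 and 1.77 log2 FPKM in controls (difference 0.73 ± 0.21 SE, limma adjusted p = 0.132). In PDGFR cells they were 2.25, 2.66 and 2.79 log2 FPKM in labeled libraries and 0.43, 0.99 and 0.54 log2 FPKM in controls (difference 1.91 ± 0.21 SE, limma adjusted p = 4.35e-05). Its labeled and control libraries did not overlap in any construct. Over all genes tested they did not overlap for 5.3% in Lyn11, 26.1% in Lck, 14% in CD28 and 13.9% in PDGFR cells. SLC10A1 was 1 of 2 members whose 13 labeled and 13 control libraries did not overlap, beside 0.287% of all genes tested. It had 124 to 367 recovered reads per labeled library and 42 to 93 per control library. On the average, SLC10A1 rose by 1.52 ± 0.10 (SE, limma adjusted p = 3.67e-09), and that call held under all 36 alternatives run for it. The PDGFR call ended when each construct was fitted alone (limma adjusted p = 0.1885).

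SLC25A18, a mitochondrial glutamate carrier, passed the detection rule through labeled libraries alone, so its differences are given as a description with no test. Its gene lies on the plus strand of chr22:17563439-17590994 (hg38), and AC007666.1 overlaps it on the opposite strand. In Lyn11 cells it stood at 0.28, 0.94, 0.32 and 0.81 log2 FPKM in labeled libraries and at -0.14, -1.14, -0.99 and -1.55 log2 FPKM in controls (difference 1.54 ± 0.35 SE). In Lck cells it stood at 1.24, 1.08 and 0.69 log2 FPKM in labeled libraries and at -1.20, -0.80 and -1.13 log2 FPKM in controls (difference 2.05 ± 0.40 SE). Every labeled library of these inside constructs lay above every control library of the same construct. In CD28 cells the levels were 0.73, -0.48 and -0.19 log2 FPKM in labeled libraries and -0.26, -0.77 and -1.14 log2 FPKM in controls, which overlap (difference 0.74 ± 0.40 SE). In PDGFR cells they were 0.79, 0.47 and 0.05 log2 FPKM in labeled libraries and -0.69, -1.79 and -1.06 log2 FPKM in controls, which do not (difference 1.62 ± 0.40 SE). Recovered reads ran from 47 to 237 per labeled library and from 18 to 133 per control library. The average difference was 1.49 ± 0.19 (SE), and 1.47 without the second CD28 labeled and the second PDGFR control libraries. With the stricter filter, above 0 in at least 13 libraries, it was not among the genes tested.

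The promoters are shown as the sequence context of members with labeled minus control differences and of an abundant carrier, and they run from CG-poor to CG-rich. The 300-base windows below run from 250 bases before to 50 bases after the start of each gene, 5′ to 3′ on the gene's own strand, from RefSeq on GRCh38.p14, with each CG dinucleotide in capitals. SLC10A1 is at chr14:69797192-69797491 (minus), SLC25A18 at chr22:17563248-17563547 (plus), SLC6A13 at chr12:262787-263086 (minus), SLC24A1 at chr15:65611100-65611399 (plus) and SLC25A3 at chr12:98593436-98593735 (plus).
SLC10A1: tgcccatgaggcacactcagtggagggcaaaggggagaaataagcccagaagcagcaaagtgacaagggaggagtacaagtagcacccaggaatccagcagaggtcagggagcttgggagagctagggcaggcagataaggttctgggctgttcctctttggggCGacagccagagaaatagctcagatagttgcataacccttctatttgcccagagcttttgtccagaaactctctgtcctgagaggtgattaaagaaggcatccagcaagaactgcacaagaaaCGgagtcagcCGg
SLC25A18: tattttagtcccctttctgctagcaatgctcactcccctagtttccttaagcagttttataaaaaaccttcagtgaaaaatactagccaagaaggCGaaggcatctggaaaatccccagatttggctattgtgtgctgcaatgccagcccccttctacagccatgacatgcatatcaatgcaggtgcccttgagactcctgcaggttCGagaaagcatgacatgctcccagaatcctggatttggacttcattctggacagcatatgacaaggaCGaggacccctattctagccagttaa
SLC6A13: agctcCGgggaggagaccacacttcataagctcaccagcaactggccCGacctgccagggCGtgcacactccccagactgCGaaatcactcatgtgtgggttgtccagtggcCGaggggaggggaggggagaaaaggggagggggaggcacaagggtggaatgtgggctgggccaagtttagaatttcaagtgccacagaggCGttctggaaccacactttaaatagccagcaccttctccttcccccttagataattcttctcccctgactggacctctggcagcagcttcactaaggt
SLC24A1: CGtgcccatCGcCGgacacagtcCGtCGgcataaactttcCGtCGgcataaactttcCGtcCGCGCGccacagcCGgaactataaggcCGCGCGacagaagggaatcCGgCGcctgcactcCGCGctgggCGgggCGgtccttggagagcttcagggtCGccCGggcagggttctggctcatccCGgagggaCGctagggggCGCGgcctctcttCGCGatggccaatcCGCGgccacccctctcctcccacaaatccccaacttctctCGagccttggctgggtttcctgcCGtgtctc
SLC25A3: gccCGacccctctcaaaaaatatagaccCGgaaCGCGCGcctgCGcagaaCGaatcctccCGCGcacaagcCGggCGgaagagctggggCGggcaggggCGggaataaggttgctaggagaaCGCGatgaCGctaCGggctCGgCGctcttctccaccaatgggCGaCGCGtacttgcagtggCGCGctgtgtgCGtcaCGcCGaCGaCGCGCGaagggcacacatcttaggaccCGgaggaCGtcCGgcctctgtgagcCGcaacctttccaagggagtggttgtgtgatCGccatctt
SLC10A1 and SLC25A18 hold 3 CG dinucleotides each, SLC6A13 holds 6, SLC24A1 holds 33 and SLC25A3 holds 36. Of the 12 members called higher on the average, 8 have a window, and the other 4 of these hold 2 (SLC4A5), 4 (SLC5A2), 7 (SLC38A8) and 32 (SLC49A3). Members that were not called include CG-poor windows, such as SLC7A8 with 2 and SLC12A8 with 3, and CG-rich ones, such as SLC12A2 with 47 and SLC7A1 with 49. These are picked examples and do not give the share of either kind. CG content therefore differed widely within both sets, and no difference between them is claimed. Over all 27305 promoters of the table the median was 14, and 25.4% held 3 or fewer, 37.5% held 6 or fewer and 88.9% held 36 or fewer. Among the 36 of 43 SLC25 genes with a window the median was 27 CG dinucleotides, beside 26 for 10458 protein-coding genes tested. The windows were matched for 199 of 251 members, so no count over all members is given.

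**Figure D3:**
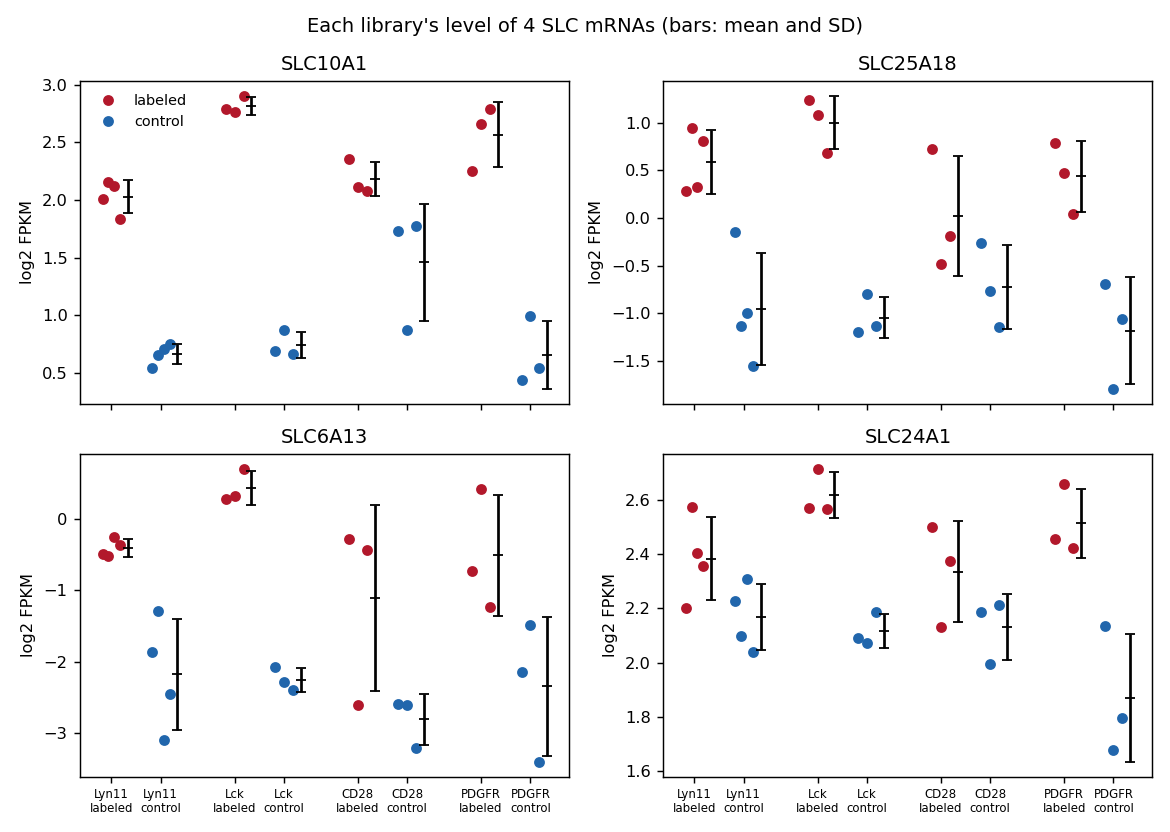
Log2 FPKM of SLC10A1, SLC25A18, SLC6A13 and SLC24A1 in each library, with labeled (red) left of control (blue) for each construct and black bars for the mean and SD (n = 4 for Lyn11, 3 for the others). Labeled points of SLC10A1 lie above all control points of the same construct, while labeled and control points overlap for SLC25A18 and SLC6A13 in CD28 cells and for SLC24A1 in Lyn11 and CD28 cells.

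SLC24A1, the sodium, calcium and potassium exchanger of rod photoreceptors, was the most abundant member to rise, and the change was small. Its level was 2.13, 2.46 and 2.72 log2 FPKM at the lowest, median and highest of the 13 labeled libraries and 1.68, 2.1 and 2.31 log2 FPKM in the 13 control libraries. The ranges overlap. In PDGFR cells it stood at 2.46, 2.66 and 2.42 log2 FPKM in labeled libraries and at 2.13, 1.68 and 1.80 log2 FPKM in controls (difference 0.64 ± 0.14 SE, limma adjusted p = 0.0185), and without the 2 libraries that stood apart the difference was 0.55 and no longer passed. The PDGFR call also ended without the second PDGFR labeled or the second PDGFR control library alone. It ended too with weights by construct, each construct fitted alone, limma voom on the recovered reads and a replicate block. In all, the PDGFR call held under 30 of 37 alternatives. On the average it rose by 0.39 ± 0.07 (SE, limma adjusted p = 0.000856), a call kept under all 36 alternatives. AC011939.3 and DENND4A overlap it on the opposite strand.

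Apart from SLC10A1 and SLC24A1, the members named as rising or falling with labeling lie under the level of 1 log2 FPKM set for naming, and they are named here after their values were seen. The counts by substrate that follow are to be read beside the 4.29% of all genes tested called higher on the average and 3.08% called lower, and no substrate group was tested as such. Those called members that had passed the detection rule through labeled libraries alone are described by their values, with no test. Of 19 transporters of organic ions and bile acids, 4 rose and 0 fell. SLC10A1 is 1 of these. SLC22A13, an organic anion transporter, rose by 2.14 ± 0.45 on the average (SE, limma adjusted p = 0.00418). In PDGFR cells it stood at 2.22, 1.48 and 1.32 log2 FPKM in labeled libraries and at -0.29, -5.63 and 0.15 log2 FPKM in controls (difference 3.60 ± 0.93 SE, limma adjusted p = 0.0466). That difference rests on the second PDGFR control library, at -5.63: without it and the second CD28 labeled library it was 1.74 and did not pass, while the average was 1.78 and did. The PDGFR call held under 10 of 36 alternatives, and AP006193.1 overlaps the gene on the opposite strand. SLC10A5, a relative of SLC10A1, rose by 0.57 ± 0.17 on the average (SE, limma adjusted p = 0.0470), with 0.54, 1.33 and 2.02 log2 FPKM at the lowest, median and highest of the labeled libraries and -0.25, 0.59 and 1.95 log2 FPKM in controls. Its call held under 16 of 36 alternatives, with adjusted p from 0.0228 to 0.0926. In PDGFR cells its difference was -0.33 ± 0.36 (SE).

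Of 25 amino acid transporters, 2 were called higher and 0 lower, both of them admitted through labeled libraries alone. SLC38A8, a glutamine transporter, had an average difference of 2.21 ± 0.49 (SE), on 6 to 51 recovered reads per labeled library and 0 to 20 per control library. Without the 2 libraries that stood apart the difference was 1.96, and AC040169.4 overlaps the gene on the opposite strand. SLC3A1, the heavy chain of the kidney cystine transporter, had an average difference of 1.35 ± 0.35 (SE). Its lowest, median and highest levels were -1.06, 0.09 and 0.55 log2 FPKM in labeled and -5.05, -1.20 and -0.55 log2 FPKM in control libraries, and without the 2 libraries that stood apart the difference was 0.99. PREPL overlaps it on the opposite strand. The abundant amino acid transporters did not pass: the average difference was 0.16 ± 0.11 for SLC7A5, 0.25 ± 0.12 for SLC1A5, 0.22 ± 0.08 for SLC3A2 and -0.07 ± 0.14 for SLC7A11, the cystine and glutamate exchanger (SE).

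Among 12 transporters of neurotransmitters and related amino acids, 1 was called higher and 0 lower. This was SLC6A13, a GABA transporter, which was admitted through labeled libraries alone. In Lck cells it stood at 0.28, 0.33 and 0.71 log2 FPKM in labeled libraries and at -2.07, -2.29 and -2.40 log2 FPKM in controls (difference 2.69 ± 0.61 SE). The Lck labeled libraries held 108, 125 and 165 recovered reads and the controls 20, 19 and 16. In CD28 cells the labeled libraries stood at -0.27, -2.61 and -0.44 log2 FPKM and the controls at -2.59, -2.61 and -3.22 log2 FPKM, so that the second labeled library lay among the controls. The average difference was 2.0 ± 0.30 (SE).

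The remaining calls were spread over several substrates. SLC5A2, the kidney glucose transporter SGLT2, was the 1 of 27 sugar and monocarboxylate transporters called higher, with an average difference of 1.14 ± 0.33 (SE). SLC4A5, a sodium bicarbonate cotransporter, was the 1 of 29 transporters of chloride, bicarbonate and protons called higher, with an average difference of 0.68 ± 0.18 (SE). Both were admitted through labeled libraries alone. Both overlap genes on the opposite strand, C16orf58 and AC026471.3 for SLC5A2 and MTHFD2 and RNU6-542P for SLC4A5. SLC49A3 rose by 1.32 ± 0.25 (SE, limma adjusted p = 0.00145), and it was also higher in Lck cells, at 0.71, 0.46 and 0.04 log2 FPKM in labeled libraries and -1.46, -2.45 and -1.49 log2 FPKM in controls (difference 2.20 ± 0.51 SE, limma adjusted p = 0.0426), a call held under 18 of 36 alternatives. MYL5 overlaps it on the opposite strand. In the unlabeled libraries SLC49A3 was lower in the inside than in the outside controls (difference -1.61 ± 0.35 SE, limma adjusted p = 0.00583). That call held under 34 of 34 alternatives, and the Lck controls are among those inside controls. SLC49A3 and SLC24A1 were the 2 of 25 members with other substrates to rise.

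None of the 27 SLC35 transporters, 24 metal transporters, 15 transporters of vitamins, nucleosides and phosphate or 5 members that are not carriers passed on the average by limma, with 6, 3, 2 and 0 of them at an unadjusted p under 0.05. Average differences were 0.18 ± 0.09 for SLC35B1 of the endoplasmic reticulum, 0.12 ± 0.09 for the zinc transporter SLC39A6, 0.05 ± 0.12 for the zinc exporter SLC30A1 and 0.04 ± 0.06 for the phosphate transporter SLC20A1 (SE). They were 0.01 ± 0.11 for the nucleoside transporter SLC29A1 and 0.04 ± 0.12 for the folate transporter SLC19A1 (SE). Among the plasma membrane carriers of glucose, lactate and ions they were 0.19 ± 0.11 for SLC2A1, 0.13 ± 0.08 for SLC16A1 and 0.17 ± 0.10 for SLC12A2 (SE), and none of these passed.

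SLC25A2, a mitochondrial ornithine carrier with the close relative SLC25A15, was the 1 member that fell. Its level was -2.73, -2.02 and 0.31 log2 FPKM at the lowest, median and highest of the labeled libraries and -2.02, -0.62 and 1.07 log2 FPKM in controls, and the ranges overlap widely. It had 3 to 25 recovered reads per labeled library and 7 to 40 per control library. The average difference was -1.10 ± 0.33 (SE, limma adjusted p = 0.0472). The call held under 12 of 35 alternatives, with adjusted p from 0.0112 to 0.112. Without the 2 libraries that stood apart the difference was -0.85 and did not pass.

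The abundant SLC25 mRNAs did not pass the labeled minus control test in any construct or on the average. The average difference was 0.12 ± 0.08 for SLC25A5, 0.13 ± 0.06 for SLC25A3, 0.07 ± 0.11 for SLC25A1, -0.02 ± 0.12 for SLC25A39 and 0.03 ± 0.10 for SLC25A11 (SE). It was 0.16 ± 0.09 for the ADP/ATP carrier SLC25A4, 0.02 ± 0.08 for the aspartate and glutamate carrier SLC25A13 and -0.07 ± 0.09 for the carnitine carrier SLC25A20 (SE). SLC25A4 and SLC25A5 share long stretches of sequence, so their split of reads is uncertain. SLC25A6 is listed under a pseudoautosomal copy that has an identical partner, and its values are not described for that reason.

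The machinery that imports, inserts or works beside these carriers was described from lists of named genes. None of 14 tested components of carrier import through the mitochondrial membranes passed on the average by limma, beside 7.37% of all genes, with a median difference of 0.05. None of 15 other mitochondrial solute routes passed (median 0.01), none of 17 components of the endoplasmic reticulum insertases (median 0.10), none of 9 partners and ion pumps (median 0.11) and none of 22 ABC transporters (median 0.02). At an unadjusted p under 0.05 the counts were 1, 1, 1, 2 and 2, in the same order. Over all genes tested the median was -0.01.

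The difference between the sides of the membrane was tested as the mean of the inside differences minus the mean of the outside differences. Limma called 0 of 251 members, beside 0.00449% of all genes, with 12 members at an unadjusted p under 0.05, and limma voom on the recovered reads also called 0. SLC10A1 had an inside minus outside difference of 0.40 ± 0.21 (SE, limma adjusted p = 0.755). The median over SLC25 genes was -0.09 and over other SLC genes 0.03, beside -0.04 for all genes and -0.09 for protein-coding genes. Whether these libraries could detect differences of this size was not tested.

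The position of the members relative to their neighbours was also described. For every member, the nearest tested protein-coding gene on either strand whose 3′ end points toward the member was found. This description was chosen after the values were seen and carries no test. The distance was 0 to 17.3 kb for the 12 members called higher, with a median of 2.28 kb, and 5 of the 12 overlapped that gene. For the 238 members that were not called the median distance was 15.5 kb, 123 (51.7%) lay within 17.3 kb, and 29 overlapped that gene. The bound of 17.3 kb is the largest distance of the 12 themselves, so all 12 lie within it by definition. The sets also differ in level, with a median of -0.22 log2 FPKM for the 12 and 2.56 log2 FPKM for the 238. Of the members not called, 98 lay at or below the highest mean level of the 12, with a median of 1.06 log2 FPKM. Their median distance was 12.1 kb, and 52 of them (53.1%) lay within 17.3 kb. Their median level is still above that of the 12, and 6 of the 12 had been admitted through labeled libraries alone. The distances are therefore not a comparison of like members.

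The pairs themselves were of both orientations. SRSF5 ends 3.41 kb from SLC10A1, on the opposite strand, and ATP6V1E1 ends 1.14 kb from SLC25A18, also opposite. OXSR1 ends 10.3 kb before SLC22A13 and KDM5A 17.3 kb before SLC6A13, both on the same strand as the member. Of the 12 facing genes, 8 lie on the opposite strand and 4 on the same strand. Their mean levels ran from 1.04 to 5.58 log2 FPKM, with a median of 3.79, against a median of 2.79 for the facing genes of members not called. Their own average differences ran from -0.48 to 0.14, and 0 of the 12 were called by limma. The facing gene of SLC25A2, which fell, lay 211 kb away. The part of the facing gene in these differences was not tested.

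**Figure D4:**
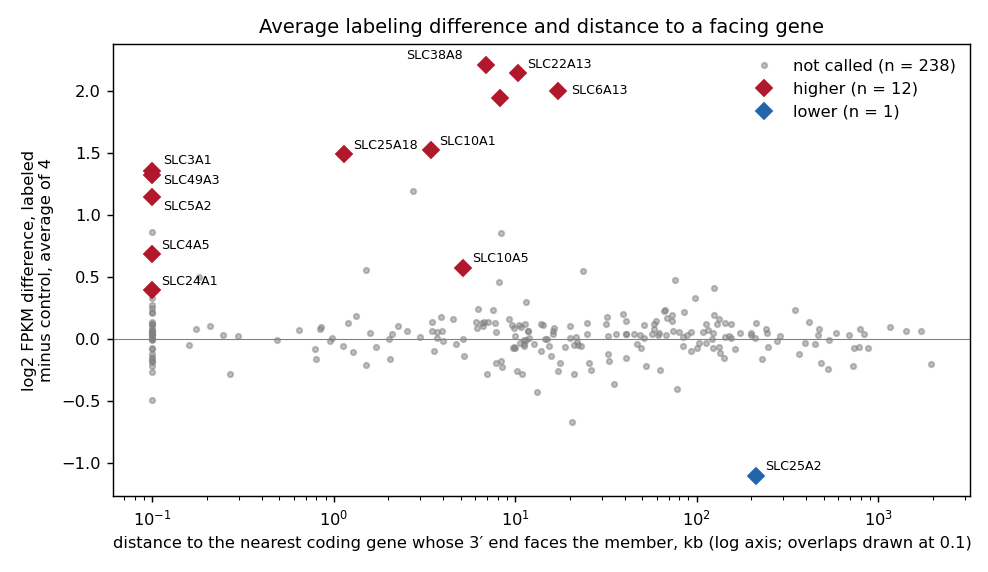
Average labeled minus control difference in log2 FPKM of each member against the distance in kb (log axis, overlaps drawn at 0.1) to the nearest tested protein-coding gene whose 3′ end points at it. The 12 higher members (red) lie up to 17.3 kb from such a gene, a bound taken from these 12. The 1 lower member (blue) lies 211 kb away. The 238 members not called (grey) lie at all distances, 123 of them within 17.3 kb.

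More SLC mRNAs differed between the unlabeled cells of the inside and outside constructs than between labeled and control libraries. In the comparison of the 7 inside controls (Lyn11 and Lck) with the 6 outside controls (CD28 and PDGFR), 24 of 251 members were higher inside and 12 lower, beside 11.2% of all genes tested, 7.34% higher and 3.84% lower, and 13.6% of protein-coding genes. The members' share of 14.3% is near that of protein-coding genes. Among SLC25 genes 5 were higher and 1 lower, and among other SLC genes 19 were higher and 11 lower. Without the first Lck control library the count of 36 was 22. The inside and outside lines also differ in depth and in the fusion they carry, and these cannot be told apart.

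Of 25 amino acid transporters, 6 were higher and 1 lower, beside 7.34% and 3.84% of all genes tested, and the group was not tested as such. SLC7A11, the cystine and glutamate exchanger, had 3.44, 4.57 and 4.89 log2 FPKM at the lowest, median and highest of the inside controls and 2.63, 3.20 and 3.87 log2 FPKM in the outside controls (difference 1.21 ± 0.20 SE, limma adjusted p = 0.000854). SLC7A3, a cationic amino acid transporter, had 1.95, 2.15 and 2.50 log2 FPKM inside and -2.72, 1.23 and 1.69 log2 FPKM outside (difference 1.97 ± 0.57 SE, limma adjusted p = 0.0290). The lowest SLC7A3 values, -1.88 and -2.72 log2 FPKM, were those of the second CD28 and the second PDGFR control libraries, and without the 2 libraries that stood apart the difference was 1.29 and still passed. Leaving out the second CD28 control library alone ended the call, as did leaving out the second PDGFR control, the third Lyn11 control or any 1 Lck control library. SLC1A4, a neutral amino acid transporter, had 2.53, 2.79 and 3.02 log2 FPKM inside and 1.69, 2.16 and 2.18 log2 FPKM outside, with no overlap (difference 0.71 ± 0.13 SE, limma adjusted p = 0.0021). SLC38A2, a glutamine transporter, was higher by 0.53 ± 0.16 (SE, limma adjusted p = 0.0341) and SLC7A1 by 0.38 ± 0.10 (SE, limma adjusted p = 0.0216). The SLC38A2 call ended without the third or the fourth Lyn11, the first or the third Lck, the first CD28 or the first PDGFR control library. It ended too with weights by construct. The SLC7A1 call ended without the third Lck, the second CD28 or the second PDGFR control library, or without both libraries that stood apart. It ended too with quantile normalization.

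Of the mitochondrial carriers, SLC25A43 had 1.95, 2.26 and 2.37 log2 FPKM at the lowest, median and highest of the inside controls and 0.46, 1.39 and 2.02 log2 FPKM outside (difference 0.89 ± 0.12 SE, limma adjusted p = 0.000109). The PDGFR controls set this apart, with a mean of 0.70 log2 FPKM against 1.95 in CD28, 2.31 in Lyn11 and 2.11 in Lck controls. SLC25A3 was higher by 0.43 ± 0.09 (SE, limma adjusted p = 0.0034) and SLC25A5 by 0.43 ± 0.12 (SE, limma adjusted p = 0.0227), with control means for SLC25A3 of 5.64 in Lyn11, 5.34 in Lck, 5.26 in CD28 and 4.86 in PDGFR libraries. The SLC25A5 call ended without the second Lck, the second CD28 or the second PDGFR control library, or without both libraries that stood apart. SLC25A10, the dicarboxylate carrier, was lower, at 2.0, 2.46 and 3.50 log2 FPKM inside and 2.72, 3.21 and 3.63 log2 FPKM outside (difference -0.76 ± 0.20 SE, limma adjusted p = 0.0168).

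Other members named by the same rule were SLC35F1, higher by 0.75 ± 0.12 with 2.67, 2.82 and 3.05 log2 FPKM inside and 1.82, 2.07 and 2.32 log2 FPKM outside (SE, limma adjusted p = 0.000799). Lower inside were SLC26A6, an anion exchanger (-0.67 ± 0.14 SE, limma adjusted p = 0.00503), SLC27A4, a fatty acid transporter (-0.65 ± 0.17 SE, limma adjusted p = 0.0192), SLC5A4 (-0.61 ± 0.17 SE, limma adjusted p = 0.0275) and SLC12A9 (-0.58 ± 0.16 SE, limma adjusted p = 0.0269). The call ended for SLC27A4 without the first CD28 control library. For SLC5A4 it ended without the third Lyn11, the first or the second Lck or the second CD28 control library. For SLC12A9 it ended without the first or the third Lck, the first or the second CD28 or the first or the third PDGFR control library. SLC5A4-AS1 overlaps SLC5A4, and EPHB4 and SLC12A9-AS1 overlap SLC12A9, on the opposite strand. In all, 12 members had inside and outside controls that did not overlap, beside 4.36% of all genes.

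**Figure D5:**
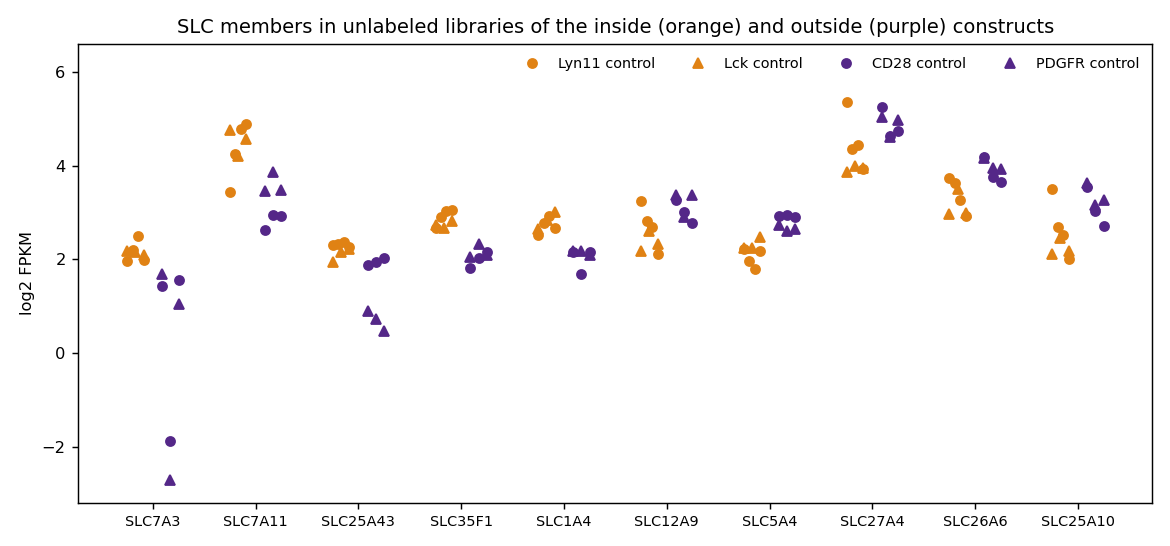
Log2 FPKM of the 10 members named in the comparison of unlabeled libraries, with the 7 inside controls (orange, Lyn11 circles and Lck triangles) left of the 6 outside controls (purple, CD28 circles and PDGFR triangles) for each gene. SLC35F1 and SLC1A4 do not overlap between the sides, SLC25A43 is low in PDGFR controls, and the lowest SLC7A3 points, -1.88 and -2.72, belong to the second CD28 and the second PDGFR control.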

How the data were processed

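Libraries were mapped with HISAT2 2.1.0 to hg38 and edgeR was used, per the submitters' processing notes. The values were deposited by the authors as log2 FPKM for 25745 genes in 26 libraries, running from -9.73 to 14.8. Recovery of whole reads showed a prior of about 1 read per library and exon lengths of GENCODE 29: of values under 100 reads, 99.99% were whole within 0.05. How reads were counted, and by which strand, is not given in the sources used here. GENCODE 29 held 24075 of the gene IDs at the same version and 1579 at another, and lacked 91.

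Genes above 0 log2 FPKM in at least 3 libraries were tested (22284). Limma 3.58.1 (R 4.3.3) was fitted to the log2 values with 8 group means and an intensity trend, on all 26 libraries, which leaves 18 residual degrees of freedom. Benjamini-Hochberg adjustment ran over all genes tested in each comparison, with a threshold of 0.05. The average is the mean of the 4 labeled minus control differences. The code was tested on simulated data. Fold changes of low genes are understated by the prior.

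The text names the 5 called members with the largest change in each direction among those with a mean level of at least 1 log2 FPKM, plus a list of carriers by role, with exceptions stated; a few genes are not reported here. The members, lists and tests were chosen with earlier results of these data known. Alternatives covered filters, log2(FPKM + 1), centring, quantile normalization, weights, limma voom on recovered reads, each construct alone, a replicate block and each library left out. Tables and figures used Python 3.11.15, pandas 2.3.3 and numpy 2.4.6.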

Additional observations from a re-analysis of the deposited data

Results flagged for a closer look

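In 4 of 134 groups tested, 1 Lyn11 library lay far from the other 3 of its group. Chance alone gives about 1 in 20 such groups. The groups come from 67 genes, and only Lyn11 groups have the 4 libraries this needs. SLC25A4 in the first Lyn11 labeled library was 3.128 log2 FPKM, above the others at 2.637 to 2.706. SLC4A5 in the first Lyn11 control library was -2.103 log2 FPKM, below the others at -0.9951 to -0.8214. SLC1A5 in the fourth Lyn11 control library was 6.447 log2 FPKM, below the others at 7.116 to 7.219. SLC25A2 in the fourth Lyn11 control library was -2.025 log2 FPKM, below the others at -1.041 to -0.9383.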

How the results depend on the processing

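Counts of called members were 3 in Lyn11, 5 in Lck, 0 in CD28, 5 in PDGFR, 13 on the average (2 SLC25 and 11 other SLC), 0 for inside minus outside and 36 between controls. In no alternative did a called value reverse, and the inside minus outside count was 0 in all of them. Without a filter the counts were 1 in CD28, 9 in PDGFR, 23 on the average and 20 for other SLC. With the stricter filter (above 0 in at least 13 libraries) they were 2 in Lck, 3 in PDGFR, 4 on the average, 0 for SLC25 and 4 for other SLC. On log2(FPKM + 1) they were 1 in CD28 and 1 for SLC25. Quantile normalization gave 5 in Lyn11, 8 in Lck, 20 on the average and 18 for other SLC. Weights by construct gave 19 in Lck and 1 in PDGFR, and each construct alone 14 in Lck and 0 in PDGFR. Limma voom gave 5 in Lyn11, 2 in PDGFR and 1 for SLC25. Leaving out both libraries that stand apart gave 6 in Lyn11, 3 in PDGFR and 1 for SLC25. Without members that overlap an opposite-strand gene there were 3 in Lck, 2 in PDGFR, 5 on the average, 1 for SLC25, 4 for other SLC and 17 between controls, since fewer members remain. Among members with a mean of at least 1 log2 FPKM there were 1 in Lyn11, 1 in Lck, 2 in PDGFR, 2 on the average, 0 for SLC25 and 2 for other SLC. The last alternative and the removal of non-carriers were chosen after seeing the data.

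Same-numbered labeled and control libraries had residual correlations from -0.2879 to 0.1658, so the numbers were not taken to pair them. With the replicate block the counts were 2 in Lyn11, 2 in Lck, 0 in CD28, 2 in PDGFR and 13 on the average. Leaving out each library in turn gave 2 to 5 in Lyn11, 2 to 6 in Lck, 0 to 1 in CD28, 2 to 7 in PDGFR, 9 to 17 on the average, 1 to 3 for SLC25, 8 to 14 for other SLC and 22 to 47 between controls. The cause of these shifts was not tested. SLC38A8 and SLC25A2 had 0 to 51 and 3 to 40 recovered reads per library, which limits the precision of their values.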
